A study of Mus musculus with 6 samples.

Results

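Junctional adhesion molecules (JAMs) and nectins are the immunoglobulin-like adhesion proteins of epithelial junctions, and 6 of their genes were followed here in luminal epithelial cells, the duct-lining and secretory cells of the mammary gland, from Ocln knockout and control mice. The 6 genes, F11r, Jam2 and Jam3 of the JAMs and Nectin1, Nectin2 and Nectin4 of the nectins, were taken by symbol from the authors' deposited table of 16701 genes, and all 6 were found there. The libraries were of polyadenylated RNA, 3 from mice labelled Ocln knockout, Ocln being the gene of the tight junction protein occludin, and 3 from wild-type control mice. Both genotypes were taken at 7 weeks of age. The labels do not say how the luminal cells were isolated, which allele removes Ocln, on what strain, or whether each library came from its own mouse, so p-values measure only the spread between these libraries, which may be technical.

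JAMs and nectins cross the membrane once and reach into the gap between neighbouring cells with immunoglobulin domains, by which they bind the same or a related molecule on the next cell. Inside the cell their tails end in a short stretch that docks to PDZ domains, those of ZO-1, PAR-3 and afadin among others. Nectins and afadin help to place the cadherins of the adherens junction, and JAM-A, the product of F11r, lies in the tight junction beside occludin and the claudins.

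The end of the coding sequence carries that docking stretch, so it is shown for the longest coding transcript of each gene and for both coding transcripts of Nectin2, which end at different places in the gene. The bases are the last 15 coding bases in lower case with the stop codon in capitals, read 5′ to 3′ on the coding strand from GENCODE M21 on GRCm38.
F11r, plus strand, chr1:171463077-171463094: tcgtcgttcctggtgTGA
Jam2, plus strand, chr16:84822802-84822819: aaatcctttataattTAA
Jam3, minus strand, chr9:27098366-27098383: tcgtcctttgttatcTGA
Nectin1, plus strand, chr9:43803999-43804016: aaagagtggtatgtgTAG
Nectin2, transcript of 9 exons, minus strand, chr7:19717515-19717532: cgggccatgtatgtgTGA
Nectin2, transcript of 6 exons, minus strand, chr7:19724481-19724498: cgggcagtttacgtgTGA
Nectin4, plus strand, chr1:171386788-171386805: cgagggcacctggtcTGA

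Among the JAMs, the ends of F11r and Jam3 had the same base at 9 of 15 positions, as did those of Jam2 and Jam3, while F11r and Jam2 shared 6. F11r, Nectin1 and both ends of Nectin2 closed on the codon gtg. The 2 ends of Nectin2 had 11 of 15 bases in common. The deposited table gives 1 value per gene, so it does not show which of these ends the RNA carried. F11r, Jam3 and Nectin4 have 1 coding end each in the annotation, and Jam2, Nectin1 and Nectin2 have 2 each, of which the second belongs to a transcript shorter than the longest of its gene.

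None of the 6 genes changed past the test. By DESeq2's Wald test with Benjamini-Hochberg adjustment, the authors' deposited table has 0 of 6 with an adjusted p under 0.05, against 1.08 percent of all listed genes, 0.808 percent higher and 0.275 percent lower in the knockout. The authors' own calls there, which also mark genes with an adjusted p above 0.05, take in 0 of 6 as well, against 2.79 percent of all listed genes. At an unadjusted p under 0.05 there were 2, Nectin1 and Nectin2, both with a positive log2 fold change, where 9.07 percent of all listed genes had such a p, 5.23 percent with a positive and 3.83 percent with a negative value. Of the 6, 5 had a positive and 1, F11r, a negative log2 fold change. Their median was 0.27 in the authors' deposited table against -0.01 over all listed genes, of which 48.8 percent were positive. The genes are few, and this median is a description of these values only.

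Ocln itself, the deleted gene, fell to 44.9 percent of control (95 percent interval 35.9 to 56.2) in the authors' deposited table (DESeq2 adjusted p = 4.36e-09). The table does not show which exons the remaining reads came from. Per kilobase of the longest coding transcript its mean level was 505 normalized counts, below those of F11r, Nectin2 and Nectin4 given further on.

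F11r encodes JAM-A, the JAM of epithelial tight junctions, and was the most abundant of the 6. On GRCm38 it lies at chr1:171437535-171464603 on the plus strand. The authors' deposited table gives F11r a mean level of 5922 normalized counts over the 6 libraries, higher than that of 96.4 percent of listed genes, levels not being scaled for length. The mean level and the fold change together imply 5788 normalized counts in knockout cells and 6057 in control cells. The log2 fold change of F11r in the authors' deposited table was -0.07 ± 0.16 (SE, DESeq2 adjusted p = 0.965), or 95.6 percent of control (95 percent interval 76.6 to 119). That interval leaves room for a difference of either sign, and it lies above the whole interval of Ocln.

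Jam2 and Jam3, the genes of JAM-B and JAM-C, were far below F11r. JAM-B and JAM-C bind each other and are best known from endothelium and the testis. Jam2 lies at chr16:84774123-84825928 on the plus strand, and Jam3 at chr9:27097384-27155421 on the minus strand, both on GRCm38. Jam2 had a mean level of 159 normalized counts in the authors' deposited table, with 172 implied in knockout cells and 147 in control cells. Its log2 fold change there was 0.23 ± 0.28 (SE, DESeq2 adjusted p = 0.91), with an interval of 80.4 to 171 percent of control. Jam3, at a mean level of 16.8 in the authors' deposited table, higher than only 9.32 percent of listed genes, had 19.9 normalized counts implied in knockout cells and 13.7 in control cells. Its log2 fold change there, 0.54 ± 0.63 (SE, DESeq2 adjusted p = 0.903), was the largest in size of the 6 and the least precise, with an interval of 61.8 to 341 percent.

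Per kilobase of the longest coding transcript, F11r made up 98.1 percent of the summed mean level of the JAM genes, at 2352 normalized counts per kilobase against 36.4 for Jam2 and 8.67 for Jam3. Markers of endothelial cells were present in the preparation at a low level. All 10 of the endothelial markers were listed in the authors' deposited table, with a summed mean level of 2360 normalized counts against 343747 for 8 luminal markers. The highest were Pecam1 at 877 and Plvap at 414 normalized counts in the authors' deposited table, with log2 fold changes of 0.04 ± 0.21 and 0.27 ± 0.23. Summed over the markers, 2429 were implied in knockout cells and 2292 in control cells. Their log2 fold changes in the authors' deposited table ran from -0.08 to 0.42, with 0 called by DESeq2 and 0 at an unadjusted p under 0.05. The part of these cells in the values of Jam2 and Jam3 was not tested, and in such bulk libraries fewer cells of a type and less RNA per cell cannot be told apart.

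**Figure D1:**
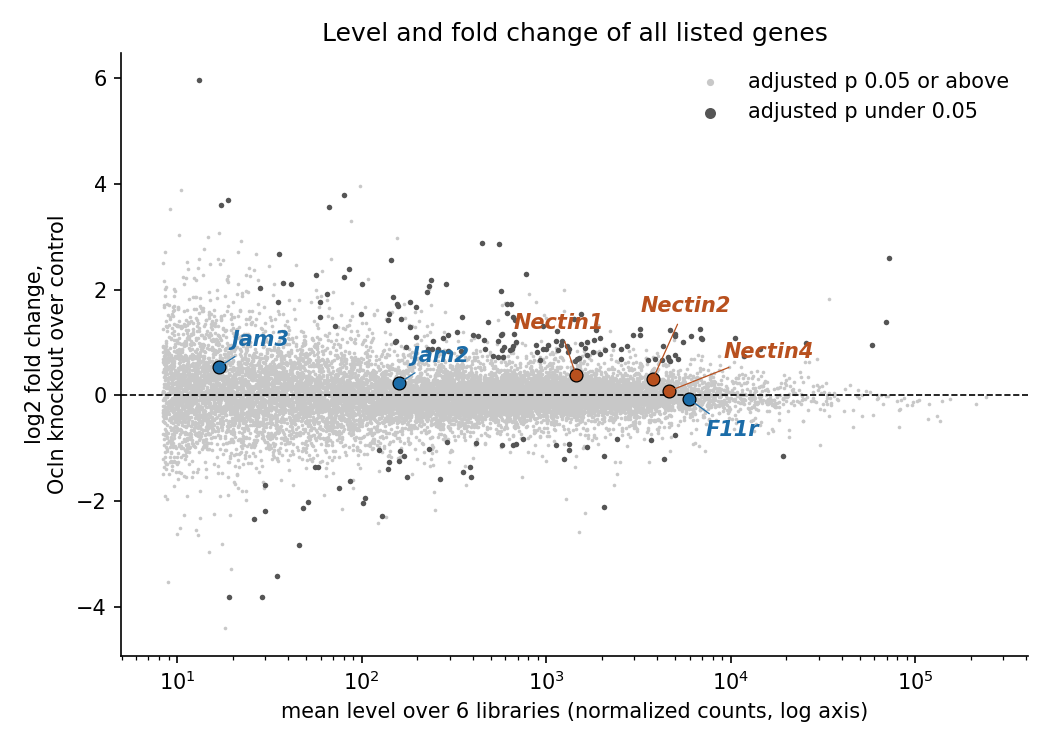
Log2 fold change, Ocln knockout over control, against the mean level over 6 libraries in normalized counts on a log axis, for every gene in the authors' deposited table. Large points are the JAM genes (blue) and nectin genes (orange). All 6 lie within the grey genes with an adjusted p of 0.05 or above, with Jam3 at a mean level of 16.8 on the left and F11r at 5922 on the right.

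Nectin1 and Nectin2 stood nearest to a call. Nectin-1 is an adhesion partner of nectin-3 and nectin-4, and nectin-2, also known as CD112, is a ligand of receptors on T and NK cells. Nectin1 lies at chr9:43743984-43807461 on the plus strand, and Nectin2 at chr7:19716644-19750483 on the minus strand, both on GRCm38. Nectin2 had a mean level of 3787 normalized counts in the authors' deposited table, with 4193 implied in knockout cells and 3380 in control cells. Its log2 fold change in the authors' deposited table was 0.31 ± 0.14 (SE), or 124 percent of control, interval 103 to 150 percent (DESeq2 unadjusted p = 0.0249, adjusted p = 0.438). For Nectin1, at a mean level of 1451 in that table, 1641 normalized counts were implied in knockout cells and 1260 in control cells.

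The log2 fold change of Nectin1 in the authors' deposited table was 0.38 ± 0.19 (SE), or 130 percent of control, interval 101 to 168 percent (DESeq2 unadjusted p = 0.0429, adjusted p = 0.521). These 2 intervals are not adjusted for the number of genes, and by unadjusted p Nectin2 and Nectin1 ranked 946 and 1373 of 16701. The unadjusted p of Nectin1 was 0.0623 once the scores were scaled down for their inflation and 0.0821 once the trend of the score with transcript length was taken out. Nectin2 had 0.0389 and 0.0212 in the same settings.

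Nectin4, whose product is nectin-4, a partner of nectin-1, differed little in its central value. On GRCm38 it lies at chr1:171370099-171388598 on the plus strand. The authors' deposited table gives it a mean level of 4638 normalized counts, with 4769 implied in knockout cells and 4506 in control cells. Its log2 fold change there was 0.08 ± 0.17 (SE, DESeq2 adjusted p = 0.961), with an interval of 83.6 to 134 percent of control. Nectin3, the remaining nectin gene, which was not among the 6, had a mean level of 56.7 in the authors' deposited table, where its log2 fold change was -0.20 ± 0.34 (SE, DESeq2 adjusted p = 0.95). Per kilobase of the longest coding transcript, Nectin2 and Nectin4 held 91 percent of the summed mean level of the nectin genes. Whether the nectin genes differed from each other in fold change was not tested, since their values come from the same libraries and the table does not give their covariance.

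Ordered by mean level per kilobase of the longest coding transcript, F11r stood at 2352 normalized counts, Nectin2 at 1385, Nectin4 at 1275, Nectin1 at 257, Jam2 at 36.4 and Jam3 at 8.67. The order is that of the authors' means, without a spread of the levels between libraries. The SE is a value fitted by DESeq2, which draws also on genes of similar level, and is not a measured spread of each gene. For 3 libraries of equal depth per genotype it implies a coefficient of variation between libraries of 1 genotype, counting error taken out. This fitted variation was 13.8 percent for F11r, 11.6 for Nectin2 and 14.7 for Nectin4. Nectin2 exceeded Nectin4 by 8.55 percent, and whether these neighbours differ could not be tested without levels per library. F11r was 1.70 times Nectin2, and Nectin4 was 4.97 times Nectin1. The implied variation was 15.7 percent for Nectin1, 22.2 for Jam2 and 47.2 for Jam3. The counting error beside it was 24.8 percent for Jam3 and 1.30 percent for F11r.

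The precision of the table sets what could have been called. At the largest unadjusted p that passed, 0.000541, a gene with the SE of Nectin2 would have needed a rise of 1.39-fold or a fall of 28.3 percent. For F11r these limits were 1.48-fold and 32.4 percent, for Nectin4 1.52-fold and 34.0 percent, and for Nectin1 1.57-fold and 36.3 percent. They were 1.95-fold and 48.7 percent for Jam2 and 4.51-fold and 77.8 percent for Jam3. Smaller estimated differences in these genes would not have been called at these SEs. The limits apply to the estimate and not to the true difference. The median SE of genes in the same of 10 equal bins of mean level was taken from the authors' deposited table. It was 0.17 for F11r, Nectin2 and Nectin4, 0.17 for Nectin1, 0.27 for Jam2 and 0.71 for Jam3. The SEs of Nectin2, at 0.14, and Jam3, at 0.63, lay furthest below it, while that of Nectin1, at 0.19, lay above it.

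**Figure D2:**
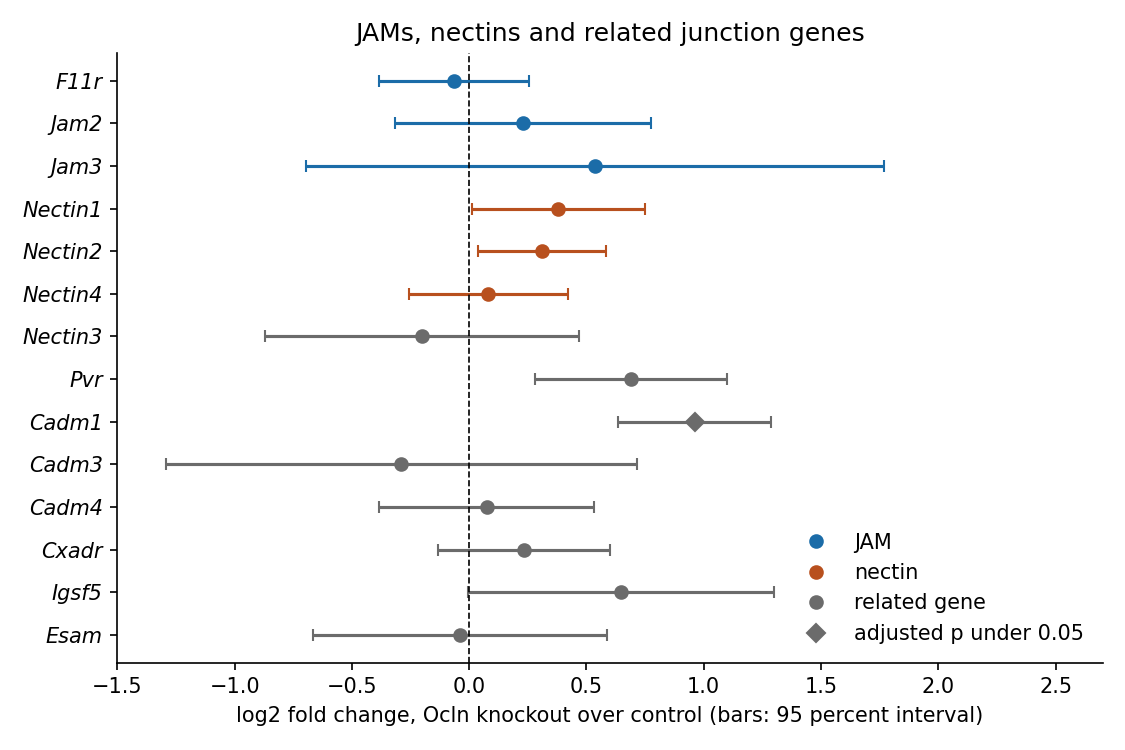
Log2 fold change, Ocln knockout over control, in the authors' deposited table, with bars of the 95 percent interval, for the JAM genes (blue), the nectin genes (orange) and related junction genes (grey). The bars of Nectin1 and Nectin2 end just above 0, at 0.01 and 0.04, those of the other 4 cross 0, and Cadm1 at 0.96 is the gene with an adjusted p under 0.05.

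Related immunoglobulin-like junction genes held 1 call. Of 20 such genes, 14 were listed, and by DESeq2 1 rose and 0 fell, against 1.08 percent called over all listed genes. At an unadjusted p under 0.05, 2 were positive, Cadm1 and Pvr, against 5.23 percent of all listed genes. The median log2 fold change was 0.11 against -0.01 over all genes. Cadm1, which encodes a nectin-like adhesion molecule of epithelial cells, rose to 1358 implied normalized counts in knockout cells, against 697 in control cells. Its log2 fold change in the authors' deposited table was 0.96 ± 0.17 (SE, DESeq2 adjusted p = 7.07e-06), a 1.95-fold rise with an interval of 1.55 to 2.44-fold. Under other adjustments, filters and centrings the adjusted p of Cadm1 lay between 4.12e-06 and 9.44e-05. Its call was lost where a log2 fold change of 1 or more in size was required and under the authors' own call, in which Cadm1 is stable. Pvr, the gene of another nectin-like molecule, which binds nectin-3 and leukocyte receptors shared with nectin-2, did not pass. Its log2 fold change in the authors' deposited table was 0.69 ± 0.21 (SE, DESeq2 adjusted p = 0.0713, unadjusted p = 0.00099).

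For Pvr 1363 normalized counts were implied in knockout cells and 846 in control cells. Cxadr, which encodes the coxsackie and adenovirus receptor of tight junctions, led these genes by mean level, at 7516 in the authors' deposited table, and its log2 fold change there was 0.23 ± 0.19 (SE, DESeq2 adjusted p = 0.805). Mpzl1 followed at 2589, with 0.14 ± 0.19 (adjusted p = 0.924) in the authors' deposited table. Values of Cadm3, Cadm4, Igsf5 and Esam did not pass either, from -0.29 ± 0.51 for Cadm3 to 0.65 ± 0.33 for Igsf5 in the authors' deposited table.

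The cytoplasmic partners, which hold the tails of JAMs and nectins, gave no call by adjusted p. All 26 were listed in the authors' deposited table, and by DESeq2 0 had an adjusted p under 0.05. Of the 26, 4 were positive and 0 negative with an unadjusted p under 0.05, Pard6b at 1.22 ± 0.59 among them, in the authors' deposited table. The shares over all listed genes were 5.23 percent positive and 3.83 percent negative. By the authors' own call in that table Pard6b was up, at a DESeq2 adjusted p of 0.508. A count of 21 of the 26 had a positive log2 fold change, where 48.8 percent of all listed genes did. Their median was 0.21 against -0.01 over all genes. Afdn, the gene of afadin, the shared anchor of the nectins, had 0.25 ± 0.16 (SE, DESeq2 adjusted p = 0.712) in the authors' deposited table. Tjp1 and Tjp3 encode scaffolds of the tight junction, of which ZO-1, the product of Tjp1, binds the tail of JAM-A. In that table Tjp1 had 0.35 ± 0.14 (adjusted p = 0.329) and Tjp3 0.41 ± 0.24 (adjusted p = 0.634). Prkci, which encodes a polarity kinase bound to PAR-3 and PAR-6, led by mean level, at 6609 in the authors' deposited table, with a log2 fold change of 0.12 ± 0.15.

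Receptors through which leukocytes bind JAMs and nectins gave no call by adjusted p. The receptor genes Cd226, Tigit, Cd96 and Pvrig were not analysed here. Of 11 such genes 7 were listed, with 0 called by DESeq2, 1 with an unadjusted p under 0.05, which was positive, and a median log2 fold change of 0.64. Highest by mean level were the integrin genes Itgb1, 11341 with a log2 fold change of 0.00 ± 0.13, and Itgav, 2966 with -0.32 ± 0.21, in the authors' deposited table, and epithelial cells use both. Itgb2, the shared chain of the leukocyte integrins that JAMs bind, had a mean level of 104, and its log2 fold change in the authors' deposited table was 1.04 ± 0.41 (SE, DESeq2 adjusted p = 0.294), which the authors' own call marks as up. Leukocyte markers had values of the same sign. Of 12 immune markers 7 were listed in the authors' deposited table, all with a positive log2 fold change from 0.21 to 1.54, 0 called by DESeq2 and 1, Cd52, at an unadjusted p under 0.05. Summed, the markers implied 1353 normalized counts in knockout cells and 856 in control cells, and the other 5, Cd3d, Cd3e, Cd79a and Nkg7 among them, were not analysed here. The highest were Ptprc (1.19 ± 0.76) and Cd68 (0.49 ± 0.26) in the authors' deposited table. Their part in the value of Itgb2 was not tested.

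Of 13 growth factor receptors, integrins and tetraspanins taken here as possible membrane partners of nectins and JAMs, 1 rose and 0 fell. Whether each of them pairs with a nectin or JAM was not tested. By DESeq2 2 positive and 1 negative gene had an unadjusted p under 0.05, namely Igf1r, Met and Fgfr1. The median was -0.10. Over all listed genes 0.808 percent were called higher and 0.275 percent lower. The rise was that of Igf1r, the receptor of insulin-like growth factors, at 0.76 ± 0.16 (SE, DESeq2 adjusted p = 0.000925) in the authors' deposited table, a 1.69-fold change with 2089 normalized counts implied in knockout cells and 1237 in control cells. The call of Igf1r was lost under the same 2 rules, the limit on fold change and the authors' own call. Prlr, the prolactin receptor gene, led by mean level, at 51105 with a log2 fold change of -0.40 ± 0.26, and the tetraspanin gene Cd9 followed at 18312 with -0.13 ± 0.18, in the authors' deposited table.

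The cadherin and catenin genes, which lie beside the nectins in adherens junctions, gave 0 calls of 7 by DESeq2 and 0 at an unadjusted p under 0.05, with a median of 0.04. Cdh1, the gene of E-cadherin, had a mean level of 24650 and a log2 fold change of 0.25 ± 0.17, and Ctnnb1, that of beta-catenin, 13413 and 0.04 ± 0.14, in the authors' deposited table. The 8 genes of proteases that cut nectins from the cell surface had a median of -0.10 and likewise 0 calls and 0 at an unadjusted p under 0.05 by DESeq2. Adam10, which sheds nectin-1, had a mean level of 14634 and a log2 fold change of -0.51 ± 0.26, and Ncstn, a subunit of gamma-secretase, 3744 and -0.06 ± 0.14, in the authors' deposited table.

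**Figure D3:**
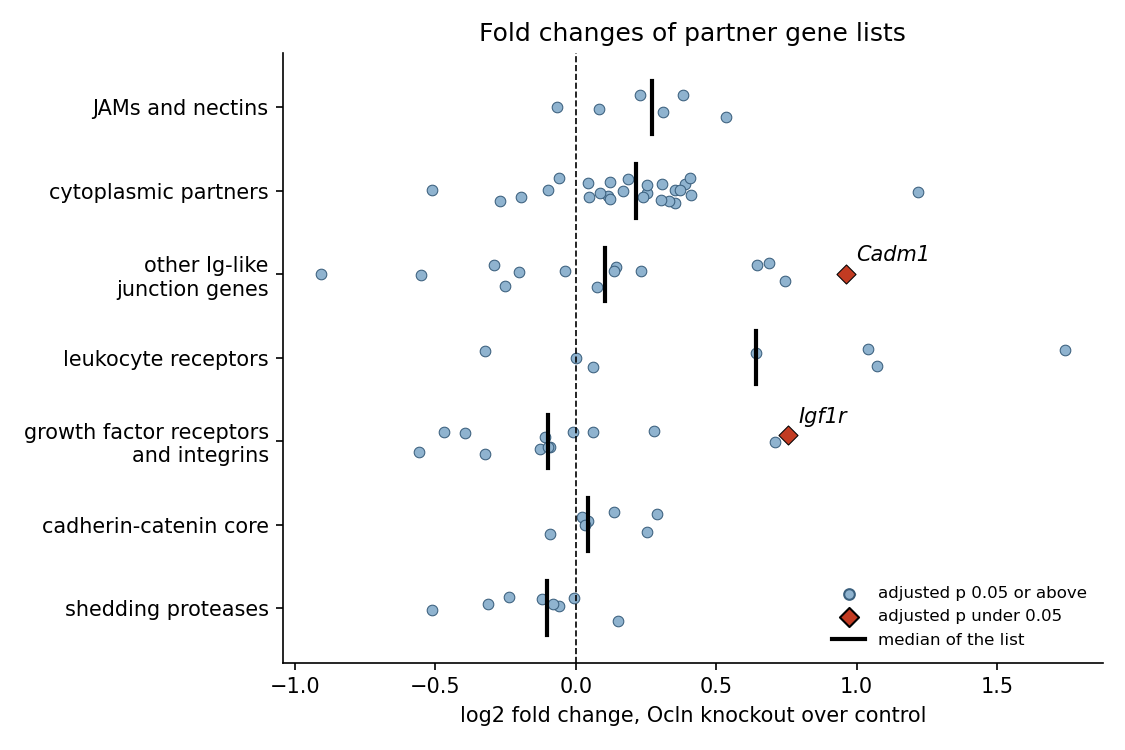
Log2 fold change, Ocln knockout over control, in the authors' deposited table, 1 point per listed gene, for the JAM and nectin genes and 6 lists of partner genes, with a bar at each median. Diamonds are the genes with an adjusted p under 0.05, Cadm1 at 0.96 and Igf1r at 0.76, and the JAM and nectin genes lie between -0.07 and 0.54.

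F11r and Nectin4 are neighbours on chromosome 1 in the same orientation, with 48936 bases between the end of Nectin4 and the start of F11r. Between them lie Arhgap30, Usf1 and Tstd1, whose log2 fold changes in the authors' deposited table were 1.004 ± 0.53, -0.32 ± 0.19 and -0.74 ± 0.60, with DESeq2 adjusted p of 0.569, 0.667 and 0.806. Next to the pair stood Klhdc9 with -0.11 ± 0.59 and Alyref2 with -0.46 ± 0.52 in the authors' deposited table. Within 0.5 Mb of either gene 34 other genes were listed, and 0 were called by DESeq2, with an unadjusted p under 0.05 in 1 positive gene, Fcrla, and 2 negative ones, Cfap126 and Nit1, and a median of -0.14. By mean level not scaled for length, F11r and Nectin4, at 5922 and 4638 in the authors' deposited table, were the highest listed genes of this window.

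**Figure D4:**
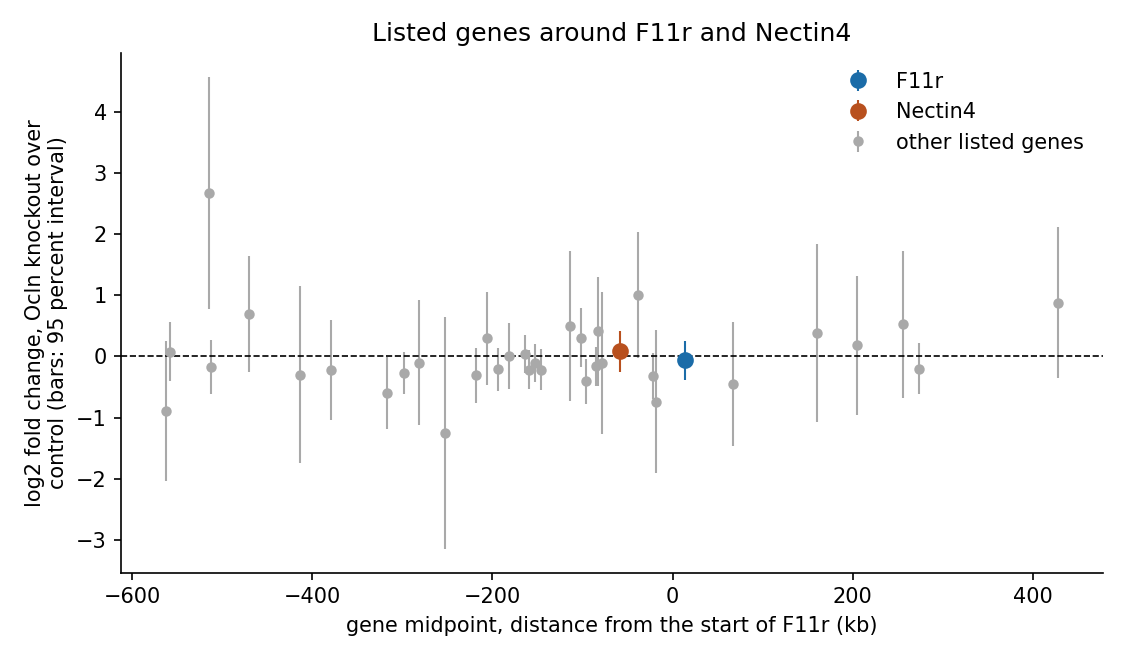
Log2 fold change, Ocln knockout over control, in the authors' deposited table, with bars of the 95 percent interval, against the distance of each gene's midpoint from the start of F11r in kb, for the listed genes within 0.5 Mb of F11r (blue) or Nectin4 (orange). F11r at -0.07 and Nectin4 at 0.08 have short bars that cross 0, and the 34 other genes (grey) lie between -1.25 and 2.67.

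Genes that overlap Nectin1 and Nectin2 on the opposite strand were listed at low levels. Gm30015, opposite Nectin1, had a mean level of 9.15, and Gm20512, opposite Nectin2, 20.01, in the authors' deposited table. Whether the counting used strand is not given in the sources used here, so reads of such pairs may have been shared.

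The luminal label was met by the defining markers. Krt18 and Krt8, the keratins of luminal cells, had mean levels of 84084 and 61719 in the authors' deposited table. Their log2 fold changes there were -0.10 ± 0.15 and -0.06 ± 0.14. Of the 8 luminal markers 0 were called by DESeq2. At an unadjusted p under 0.05 there were 1 positive, Cldn7 (0.39 ± 0.15), and 1 negative, Krt19 (-0.36 ± 0.18). The 10 markers of basal cells summed to 2323, with 2150 implied in knockout cells and 2497 in control cells. The highest were Acta2 (-0.16 ± 0.28) and Oxtr (-1.55 ± 0.38), and Oxtr fell (DESeq2 adjusted p = 0.00733) in that table. Krt17 had 0.86 ± 0.42 there, with a DESeq2 unadjusted p of 0.0411, and Trp63 -0.76 ± 0.40, with 0.0563. Of the 10 basal markers 3 had a positive and 7 a negative log2 fold change, and the median was -0.15. Without Oxtr, left out after its value was seen, the other 9 summed to 1951 implied in knockout cells and 1916 in control cells. That sum keeps Krt17, with 359 implied in knockout cells and 198 in control cells. Of 10 fibroblast markers 9 were listed, summing to 2007, with 1857 implied in knockout cells and 2158 in control cells. Fn1 (-0.35 ± 0.37) and Dcn (-1.36 ± 0.35) were highest in the authors' deposited table, and Dcn fell (DESeq2 adjusted p = 0.0134). Of the 9, 6 had a positive log2 fold change and the median was 0.11. Without Dcn, left out in the same way, the other 8 summed to 1640 implied in knockout cells and 1601 in control cells. Of 5 pericyte and 2 adipocyte markers in the authors' deposited table, 0 were called by DESeq2 and 0 had an unadjusted p under 0.05, with Notch3 (0.16 ± 0.14), which luminal cells express too, Rgs5 (-0.36 ± 0.37), Fabp4 (-0.14 ± 0.28) and Pparg (-1.05 ± 0.56) the highest.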

How the data were processed

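All values come from 1 table that the authors deposited, named as knockout over control. Per the file headers, it holds a mean level (a signal, in normalized counts averaged over libraries by the authors), the log2 fold change with its SE, the Wald score, the p-value and adjusted p-value, and another kind of value, their call. The submitters' processing notes name DESeq2 and mm10. Aligner, counter and annotation: not given in the sources used here. No values per library were used, so no depth per library and no new test per gene could be had. The design's description for such a table was followed.

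With Python 3.11.15, numpy 2.4.6, pandas 2.3.3 and scipy 1.17.1, intervals of 95 percent were taken from the SE by the normal distribution. Levels per genotype were derived from mean level and fold change for 3 libraries each, with the fold change read as the ratio of group means. Positions, lengths and coding ends came from GENCODE M21 (GRCm38). A length was found for 97.3 percent of genes. The steps were tested on simulated data. Protein sequences were not used here.

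The 6 genes, 6 partner lists and 7 marker lists were chosen with earlier results of these data known. Named are the 6 genes, Ocln, Tjp1, Tjp3, Afdn, related adhesion genes, the called and the 2 most abundant genes of each list, and neighbours of F11r and Nectin4. Itgb2, Pard6b, Krt17, Krt19, Cldn7, Trp63, Met, Fgfr1, Cd52, Fcrla, Cfap126 and Nit1 were named after their values were seen. Some genes of the lists, counted in their totals, are not reported here by name.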

Additional observations from a re-analysis of the deposited data

How the results depend on the processing

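None of the 6 genes was called under any of the 9 other settings tried: an adjusted p under 0.01, Benjamini-Yekutieli adjustment, a mean level of at least 50 (which leaves out Jam3), a log2 fold change of 1 or more in size, the authors' own calls, Wald scores scaled down for their inflation factor of 1.18, scores freed of their trend over 20 bins of transcript length, and log2 fold changes less the median of all genes (-0.01) or of genes at a level of at least 50 (-0.02). Of these, the lower threshold, Benjamini-Yekutieli adjustment, the fold change limit and the scaling for inflation could remove calls but not add any. Only subtracting a median alters the log2 fold changes, and by less than the size of any of the 6, so no sign could change. Of the 73 listed partner genes 2 were called, Cadm1 and Igf1r, where 1.08 percent of all listed genes were called. The count was 0 once a log2 fold change of 1 or more in size was required. The authors' own calls in the deposited table also held 2, Itgb2 and Pard6b, with 0 shared, against 2.79 percent of all listed genes. Itgb2 and Pard6b had log2 fold changes of 1.04 and 1.22, with DESeq2 unadjusted p of 0.0103 and 0.0394. Their adjusted p were 0.294 and 0.508, so the authors' call does not require an adjusted p under 0.05. Cadm1 and Igf1r, at 0.96 and 0.76, were stable in it. These labels would fit a limit of 1 on the size of the log2 fold change with an unadjusted p under 0.05. All genes called numbered 181, against 107 at an adjusted p under 0.01, 86 by Benjamini-Yekutieli, 117 with the fold change limit, 119 after division by inflation and 466 by the authors' own rule. The adjusted p of Pvr lay between 0.0595 and 0.735 over the settings. The sums of basal and of fibroblast markers without their called gene were added after seeing the data. No paired analysis was possible because the table holds no values per library, and for the same reason leaving out each replicate was not run.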
